A study of Mus musculus with 4 samples.

Results

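The genes described here encode the mitogen-activated protein (MAP) kinase cascade and phosphatases with Dusp or Ptpn symbols. Of those phosphatase genes, 10 encode MAP kinase phosphatases, and the others do not as a group oppose the cascade. All genes were chosen by symbol: every protein-coding mouse gene whose RefSeq symbol starts with Mapk, Map2k, Map3k, Map4k, Dusp or Ptpn. There were 95 of these among 21887 protein-coding genes on chromosomes 1 to 19, X and Y. The 54 genes with Mapk, Map2k, Map3k or Map4k symbols are called the kinase arm and the 41 with Dusp or Ptpn symbols the phosphatase arm. Of the 54, 8 have a kinase-arm symbol but encode scaffolds or binding proteins rather than kinases. Of the 41, Dusp27 and Ptpn23 were not counted as catalytic phosphatases. The data are peak lists from chromatin immunoprecipitation followed by sequencing (ChIP-seq) that targeted SHP, the product of Nr0b2, a nuclear receptor with no known ligand that has no DNA-binding domain and acts through DNA-binding partners. Jejunum and ileum were taken from SHP-knockout mice and from wild-type mice, both labelled C57BL/6 and 8 to 12 weeks old, fasted for 12 h and refed chow for 4 h. The labels' protocols give 3 independent ChIP and input sets with tissue of 3 mice pooled in each, but there was 1 peak list for each genotype. The series has 4 samples. The input samples were not analysed here. A fasted group is not among these samples, and the lists hold no expression values, so tissue markers could not be checked.

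In the cascade, a MAP4K or another upstream signal activates a MAP3K, which phosphorylates a MAP2K, which in turn phosphorylates a MAP kinase of the ERK, JNK or p38 family on a threonine and a tyrosine. The dual-specificity phosphatases (DUSP) that act as MAP kinase phosphatases remove both phosphates, and several of them are themselves made in response to MAP kinase activity. The PTPN genes encode non-receptor tyrosine phosphatases, which act on receptors and adaptors as well as on kinases. In the intestine, growth factor signalling through ERK is known for its part in crypt proliferation, and FGF15, the ileal hormone named in the study's title, signals through a receptor tyrosine kinase. Ptpn6 and Ptpn11 encode the phosphatases called SHP1 and SHP2, which share an abbreviation with the receptor SHP and are unrelated to it.

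Some start regions of members are shown because a wild-type SHP summit lay in or next to them, and the start region of Dusp6 because no summit lay near it. Each is the 300 bases of the RefSeq window of build GRCm38.p6 (mm10 coordinates), from 250 bases before an annotated transcription start to 50 after it. Capitals mark matches to the GC box, searched as CCCGCCC on both strands. The Mapk14 window is chr17:28691092-28691391 on the plus strand and the Map3k7 window chr4:31963857-31964156 on the plus strand. The Ptpn11 window is chr5:121191348-121191647 and the Dusp1 window chr17:26508423-26508722, both on the minus strand. The windows of Dusp16 (chr6:134792579-134792878) and Map3k1 (chr13:111808944-111809243), both on the minus strand, are at starts inside those genes. The Dusp6 window is chr10:99262981-99263280 on the plus strand.
Mapk14: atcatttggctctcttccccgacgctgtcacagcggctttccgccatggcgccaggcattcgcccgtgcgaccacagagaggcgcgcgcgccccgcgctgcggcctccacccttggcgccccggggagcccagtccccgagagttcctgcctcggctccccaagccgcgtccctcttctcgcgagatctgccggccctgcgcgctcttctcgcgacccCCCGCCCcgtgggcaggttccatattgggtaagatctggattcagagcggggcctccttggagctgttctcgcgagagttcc
Map3k7: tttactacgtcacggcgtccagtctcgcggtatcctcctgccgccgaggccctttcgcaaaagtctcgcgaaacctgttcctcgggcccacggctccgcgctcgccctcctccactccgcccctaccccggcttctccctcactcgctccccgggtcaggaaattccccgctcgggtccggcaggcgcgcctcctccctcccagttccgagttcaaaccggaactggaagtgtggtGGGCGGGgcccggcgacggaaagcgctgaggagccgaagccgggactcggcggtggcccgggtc
Ptpn11: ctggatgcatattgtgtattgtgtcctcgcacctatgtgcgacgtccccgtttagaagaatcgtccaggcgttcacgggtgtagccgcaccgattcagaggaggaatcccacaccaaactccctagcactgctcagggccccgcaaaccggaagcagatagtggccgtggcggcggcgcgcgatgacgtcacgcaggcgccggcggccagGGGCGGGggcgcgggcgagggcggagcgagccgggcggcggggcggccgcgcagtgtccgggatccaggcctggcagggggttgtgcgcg
Dusp1: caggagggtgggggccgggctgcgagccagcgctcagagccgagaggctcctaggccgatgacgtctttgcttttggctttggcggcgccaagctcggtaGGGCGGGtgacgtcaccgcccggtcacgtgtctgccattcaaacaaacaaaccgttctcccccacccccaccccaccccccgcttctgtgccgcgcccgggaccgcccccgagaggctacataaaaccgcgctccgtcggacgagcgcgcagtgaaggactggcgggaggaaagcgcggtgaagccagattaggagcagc
Dusp16: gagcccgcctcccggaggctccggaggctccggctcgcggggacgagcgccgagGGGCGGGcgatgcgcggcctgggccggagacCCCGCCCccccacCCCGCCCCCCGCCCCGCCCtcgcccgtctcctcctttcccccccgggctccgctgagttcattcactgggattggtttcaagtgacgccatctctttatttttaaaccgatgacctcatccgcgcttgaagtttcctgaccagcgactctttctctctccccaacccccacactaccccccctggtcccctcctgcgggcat
Map3k1: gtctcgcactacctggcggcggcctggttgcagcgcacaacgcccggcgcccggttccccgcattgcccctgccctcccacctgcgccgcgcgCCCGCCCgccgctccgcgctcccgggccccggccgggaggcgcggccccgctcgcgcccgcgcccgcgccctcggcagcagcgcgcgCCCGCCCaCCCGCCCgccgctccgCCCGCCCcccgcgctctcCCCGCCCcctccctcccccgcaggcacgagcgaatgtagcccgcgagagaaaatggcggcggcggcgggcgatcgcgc
Dusp6: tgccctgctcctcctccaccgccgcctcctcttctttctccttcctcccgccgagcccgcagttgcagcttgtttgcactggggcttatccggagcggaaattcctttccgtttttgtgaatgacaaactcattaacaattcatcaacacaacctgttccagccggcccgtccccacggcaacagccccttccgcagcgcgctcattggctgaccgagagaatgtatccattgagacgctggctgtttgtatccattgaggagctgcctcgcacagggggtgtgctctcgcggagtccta

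In the Mapk14 window the summit lay 54 bp before the start, in the Map3k7 window 202 bp before it, in the Ptpn11 window 15 bp before it and in the Dusp1 window 42 bp after it. Next to the internal starts, the summits lay just outside the windows, 308 bp before the Dusp16 start and 171 bp after the Map3k1 start. The Dusp16 and Map3k1 windows held 5 GC box matches each, the Mapk14, Map3k7, Ptpn11 and Dusp1 windows 1 each and the Dusp6 window 0.

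SHP peaks were found at both arms at similar shares. A gene is called occupied where a summit of the wild-type list lay within 5 kb of either of its ends. Of the 95 genes, 50 were occupied (52.6%, 95% exact binomial interval 42.1 to 63.0), against a background of 26.4% of all protein-coding genes. The kinase arm had 29 of 54 occupied (53.7%, 39.6 to 67.4) and the phosphatase arm 21 of 41 (51.2%, 35.1 to 67.1). The arms differed by 2.48 percentage points, with a 95% Newcombe interval of -17.1 to 21.9. With the summit within 1 kb of an end, 23 of 54 kinase-arm genes and 15 of 41 phosphatase-arm genes were occupied, against a background of 20.7%. The intervals cover counting error over genes. There are no replicate lists to compare, and genes are not replicates, so these shares describe this list and carry no test. In tissue of mixed cell types, binding in more cells and more binding in each cell cannot be told apart.

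The knockout list held 7 peaks and the wild-type list 5775. No knockout summit lay within 5 kb of any of the 95 genes, against 51 distinct wild-type summits. The knockout summit nearest to a member was 1464212 bp away, from Mapk8ip3. The names of the lists give different filters for the genotypes, so this count is not a measure of how far the member peaks depend on SHP.

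The share differed between roles more than between arms. Of the MAP4K genes 4 of 5 were occupied, of the MAP3K genes 10 of 18, of the MAP2K genes 4 of 7, and of the MAP kinases themselves 6 of 13. Among the MAPK-activated kinases it was 1 of 3, and among scaffolds and binding proteins 4 of 8. On the phosphatase side, 5 of 10 MAP kinase phosphatases, 4 of 14 atypical DUSP genes and 12 of 17 PTPN genes were occupied. The atypical DUSP share (28.6%) was close to the background of 26.4% and the PTPN share (70.6%) was, at this distance, the highest of the groups with over 10 genes. These groups are small, and the differences between them were not tested.

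**Figure D1:**
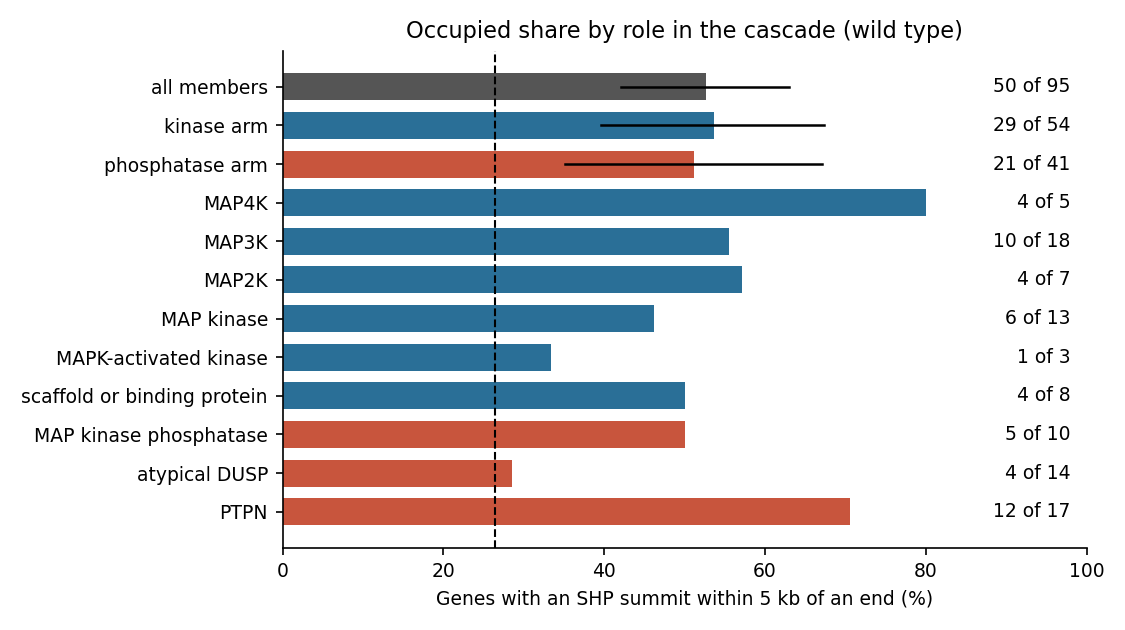
Horizontal bars give the percentage of genes in each role with a wild-type SHP summit within 5 kb of a gene end, with counts at the right, in blue for the kinase arm and red for the phosphatase arm. Black lines on the top 3 bars are 95% exact binomial intervals, and the dashed line marks 26.4% of all protein-coding genes. The bars of the arms differ by 2.48 percentage points. Within the phosphatase arm, the atypical DUSP bar stands at 28.6% and the PTPN bar at 70.6%. The 95% exact binomial intervals of these small groups, not drawn, overlap (8.39 to 58.1 and 44.0 to 89.7).

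The peaks at members were of ordinary strength for this list. The enrichment value is the signal the authors deposited for each peak, on a scale that is not stated, and each gene is given the highest value within 5 kb. Its median was 5.60 over the 50 occupied members (range 3.07 to 7.38), against 5.73 over the 5778 occupied protein-coding genes. The kinase arm had a median of 5.63 and the phosphatase arm one of 5.40. The value was 6 or more at 11 kinase-arm and 7 phosphatase-arm genes. Median −log10 p was 14.6 over the kinase arm, 14.6 over the phosphatase arm and 15.4 over all occupied genes. The highest enrichment value in the whole list was 37.2, while the highest within 5 kb of a member, 7.38 at Map4k2, ranked 443 of 5775.

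**Figure D2:**
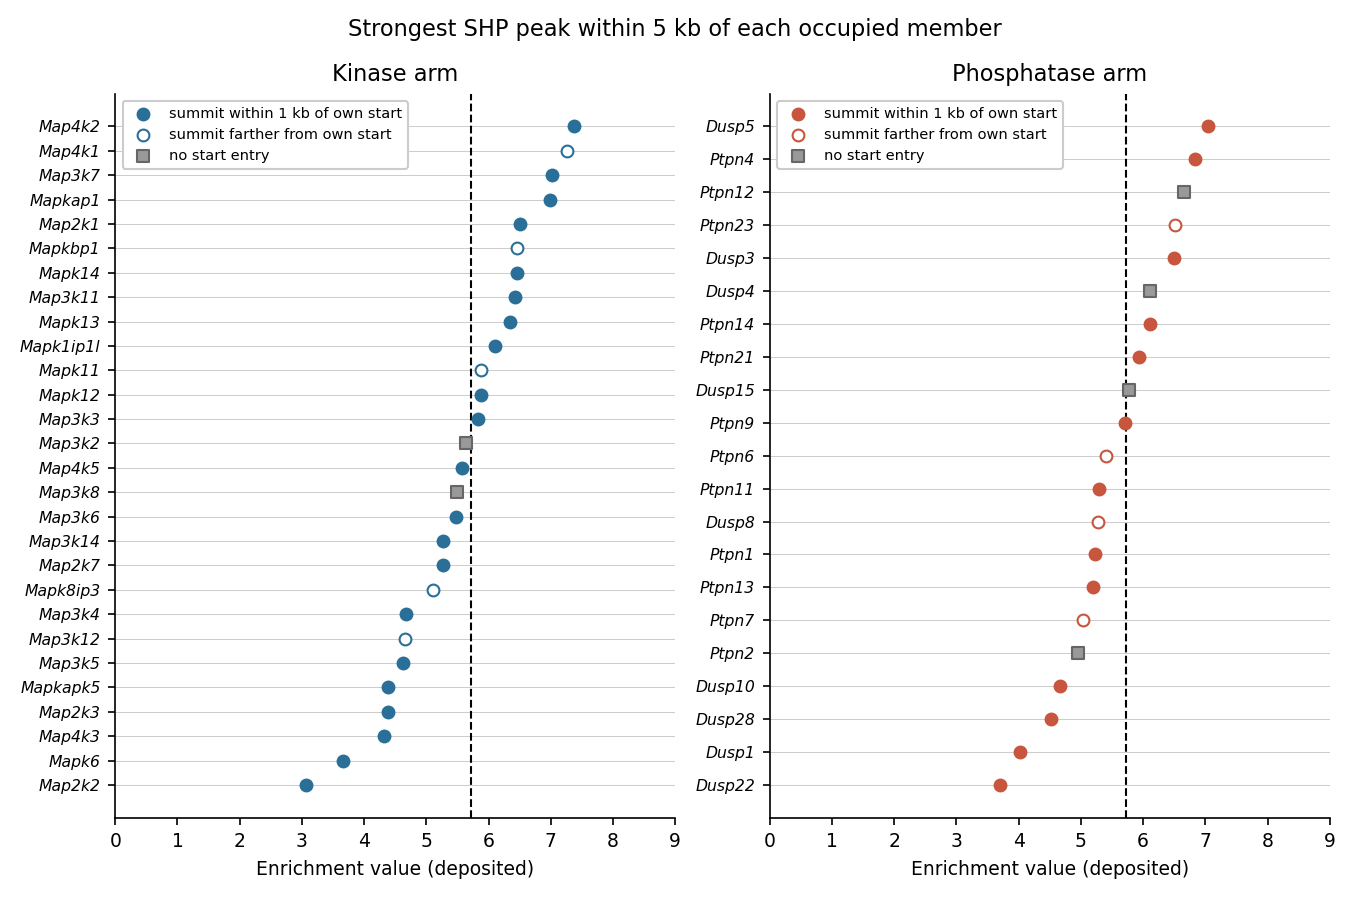
Each symbol is 1 occupied gene (49 of the 50 are drawn), placed by the deposited enrichment value of its strongest wild-type SHP peak within 5 kb, kinase arm at the left and phosphatase arm at the right. Filled circles have that summit within 1 kb of an annotated start of the gene, open circles have it farther away, grey squares are genes without a start entry, and the dashed line is the median of all occupied protein-coding genes (5.73). Values run from 3.07 at Map2k2 to 7.38 at Map4k2, and both arms lie on either side of the line.

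At the top of the cascade, Map4k2 had the highest value of all members. Map4k2 encodes a germinal centre kinase that acts upstream of JNK. Its peak at chr19:6338935-6341585 was 2651 bp wide, with an enrichment value of 7.38 (rank 443 of 5775), a −log10 p of 18.6 and the summit 103 bp before an annotated start. Men1, the gene of menin, has an end within 5 kb of the same summit. Map4k1, known for its part in lymphocyte signalling, had a value of 7.26 and a −log10 p of 16.5 at chr7:29000839-29001454. That peak of 616 bp lay inside the gene, 2230 bp from the end farther from its start and 18195 bp after the start. Map4k5 (5.58) and Map4k3 (4.32) had summits 167 and 31 bp after a start. The Map4k5 summit also lay 109 bp before the start of Atl1. Map4k4 had no summit within 5 kb, with the nearest 323583 bp away.

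Of the MAP3K genes, Map3k7 stood highest. Map3k7 encodes TAK1, which links cytokine and TGF-beta receptors to JNK, p38 and NF-kappaB. Its peak at chr4:31963423-31964413 had an enrichment value of 7.02 (rank 715) and a −log10 p of 22.5, and was 991 bp wide. The other occupied MAP3K genes were Map3k11 (6.42), Map3k3 (5.83), Map3k2 (5.63), Map3k8 (5.50), Map3k6 (5.48), Map3k14 (5.27), Map3k4 (4.68), Map3k12 (4.65) and Map3k5 (4.62). Map3k11, a mixed-lineage kinase gene, had its strongest summit 923 bp before its start and 700 bp after the start of Pcnx3. It had a second summit 761 bp after its start, with a value of 3.06. Map3k5 encodes ASK1, the stress-activated kinase upstream of p38 and JNK, and Map3k8 encodes TPL2, which feeds into ERK. Map3k1 was not occupied by the distance to gene ends. It had a summit 9447 bp inside the gene, in a peak of 2197 bp with a value of 3.56, next to the internal start whose window is printed above. Map3k9, Map3k10, Map3k13, Map3k15, Map3k19, Map3k20 and Map3k21 had no summit within 5 kb.

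The MAP2K pair that activates ERK had peaks of very different strength. Map2k1, the gene of MEK1, had an enrichment value of 6.50 and a −log10 p of 17.2 at chr9:64253017-64253822 (806 bp), with the summit 129 bp after the start. Map2k2, the gene of MEK2, had a value of 3.07 (rank 5705 of 5775) and a −log10 p of 9.2 at chr10:81105507-81107323 (1817 bp), with the summit 160 bp after a start. That was the lowest value of all occupied members. Map2k3, an activator of p38, had 4.39 with the summit 22 bp after the start, and Map2k7, an activator of JNK, had 5.27 with the summit 265 bp after it. Map2k4, Map2k5 and Map2k6 were not occupied, with nearest summits 18926, 14550 and 677734 bp away.

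Among the MAP kinases, all 4 genes of the p38 family were occupied and none of the 3 JNK genes was. The background was 26.4% of all protein-coding genes. Within 1 kb of an end, Mapk13 and Mapk14 had a summit, and Mapk11 and Mapk12 did not. These families are small, and the difference between them was not tested. The p38 genes lie in neighbouring pairs. Mapk14, which encodes p38-alpha, had a peak at chr17:28690932-28692278 (1347 bp) with an enrichment value of 6.45 and a −log10 p of 30.7. That −log10 p ranked 61 of 5775 and was the highest of all members, while the enrichment value ranked 1458. Mapk13 (p38-delta) next to it had its own peak, of value 6.35, 24 bp after a start. Mapk12 (p38-gamma) and Mapk11 (p38-beta) shared 1 peak at chr15:89139579-89141225, with a value of 5.88. Its summit was 394 bp after a start of Mapk12 and 9297 bp after that of Mapk11, so it counts for Mapk11 through the far end of that gene. The 50 occupied genes therefore rest on 49 distinct peaks.

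Mapk3, which encodes ERK1, had no summit within 5 kb. The nearest was 10938 bp away, in a peak of 166 bp whose summit lay 209 bp before the start of Ypel3. Mapk6, which encodes the atypical MAP kinase ERK3, had a value of 3.66, while Mapk4, Mapk7 and Mapk15 were not occupied. The JNK genes Mapk8, Mapk9 and Mapk10 had nearest summits 127181, 15318 and 212348 bp away. Of the downstream kinases, Mapkapk5 had a value of 4.39, and Mapkapk2 and Mapkapk3 had no peak.

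The scaffolds and binding proteins included Mapkap1 (6.99), which encodes SIN1, a subunit of the mTORC2 complex. Its peak at chr2:34406631-34407429 was 799 bp wide, with a −log10 p of 20.6 and the summit 2 bp before a start. Mapkbp1, which encodes a JNK-binding protein, had a value of 6.46 and a −log10 p of 15.4 at chr2:120027439-120027840 (402 bp). That summit was 184 bp outside the far end of Mapkbp1 and 104 bp after the start of Jmjd7. Mapk1ip1l had a value of 6.11 and Mapk8ip3, a JNK scaffold, one of 5.10. Mapk1ip1, Map3k7cl and the scaffolds Mapk8ip1 and Mapk8ip2 were not occupied.

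The MAP kinase phosphatases were split, and so were the inducible nuclear ones among them. Dusp5, a nuclear phosphatase of ERK, had the highest value of the phosphatase arm, 7.04 (rank 705), with a −log10 p of 22.1. Its peak at chr19:53528705-53530190 was 1486 bp wide with the summit 101 bp after the start. Dusp4, also nuclear, had 6.11 and a −log10 p of 16.3 at chr8:34806793-34809396 (2604 bp), with the summit 548 bp outside an end of the gene. Dusp1, an immediate early gene whose product acts on p38 and JNK, had a value of 4.02 (rank 5367) and a −log10 p of 13.0 at chr17:26507480-26508927 (1448 bp). Dusp2, the remaining inducible nuclear phosphatase, had its nearest summit 65596 bp away. Dusp6 and Dusp7, which encode cytoplasmic phosphatases of ERK, had nearest summits 156162 and 77797 bp away, and Dusp9 one 72777 bp away.

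Of the phosphatases of JNK and p38, Dusp8 had 2 summits, with values of 5.27 at 13143 bp after its start and 4.23 at 168 bp before it. Dusp10 had 4.67, 462 bp before its start and 79 bp after the start of the gene 1700056E22Rik. Dusp16 was not occupied by the distance to gene ends. It had a peak at chr6:134792789-134793075, 14127 bp inside the gene, with a value of 7.54 (rank 338), above the 7.38 that was the highest value within 5 kb of a member's ends. That peak was 287 bp wide with a −log10 p of 22.9, and its summit lay 308 bp before an annotated internal start. With summits anywhere in a gene counted, Dusp16 and Map3k1 were the members added, and 52 of 95 were then occupied.

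Most atypical DUSP genes encode small phosphatases without a MAP kinase-binding domain, and Dusp27 among them was not counted as catalytic. Dusp3 had an enrichment value of 6.50 and a −log10 p of 17.2 at chr11:101984162-101985177 (1016 bp), with the summit 45 bp before a start that lies inside the gene as annotated. Dusp15 (5.77), Dusp28 (4.52) and Dusp22 (3.70) were the others. Dusp11, Dusp12, Dusp13, Dusp14, Dusp18, Dusp19, Dusp21, Dusp23, Dusp26 and Dusp27 were not occupied.

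By the 5 kb distance to either end, 12 of 17 PTPN genes (70.6%) and 5 of 10 MAP kinase phosphatases (50%) were occupied. The background was 26.4% of all protein-coding genes. Within 1 kb of an end the shares were 8 of 17 (47.1%) and 5 of 10 (50%), against a background of 20.7%. Within 1 kb of an own start they were 7 of 15 (46.7%) and 5 of 8 (62.5%), against a background of 22.1%. The order of these groups turned between 5 kb and 1 kb of an end, over the same genes. The start rule changed the genes as well as the distance. It left out Ptpn2, Ptpn12, Dusp4 and Dusp9, which have no start entry. Relative to the 1 kb end rule it added Ptpn1 and Dusp16. Ptpn4 had an enrichment value of 6.84 and a −log10 p of 21.6 at chr1:119836791-119837815 (1025 bp), with the summit 35 bp outside the gene and 549 bp before the start entry. Ptpn12, which encodes PTP-PEST, a phosphatase of focal adhesion proteins, had 6.66 and a −log10 p of 20.7 at chr5:21055011-21056503 (1493 bp). Ptpn14, which encodes a binding partner of YAP, had 6.11 and a −log10 p of 14.6 at chr1:189727320-189729049 (1730 bp). Its relative Ptpn21 had 5.94 and a −log10 p of 17.1 at chr12:98737259-98737788 (530 bp), beside an end of Zc3h14. Ptpn9 (5.71), Ptpn1 (5.22), Ptpn13 (5.19) and Ptpn2 (4.96) followed. Ptpn1 and Ptpn2 encode PTP1B and TCPTP, which act on the insulin receptor and on JAK kinases.

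Ptpn11 encodes SHP2, the adaptor phosphatase that receptor tyrosine kinases need to activate RAS and ERK. Its start peak at chr5:121190749-121191627 (879 bp) had an enrichment value of 5.29 and a −log10 p of 13.2. A second, narrower peak of 243 bp lay deep inside the gene at chr5:121162984-121163226, 28294 bp after the start, with a higher value of 7.69 and a −log10 p of 17.3. Ptpn6, which encodes SHP1, had a value of 5.40 and a −log10 p of 14.6 at chr6:124716603-124719636 (3034 bp). That summit was 1895 bp outside the gene and 19897 bp after its start, on the side of Phb2. Ptpn23 had 6.52 and a −log10 p of 15.1 at chr9:110380278-110381813 (1536 bp), 4497 bp outside the gene on the side of Scap, and Ptpn7 had 5.03, with the summit 410 bp after the start of Arl8a. Ptpn3, Ptpn5, Ptpn18, Ptpn20 and Ptpn22 were not occupied.

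The distance of 5 kb fell in a wide gap. Ptpn23, at 4497 bp, was the occupied member with the most distant nearest summit, followed by Map3k6 at 3286 bp. The nearest summits outside the threshold were those of Map3k1 at 9447 bp and Mapk3 at 10938 bp. Of the 45 unoccupied members, 30 had no summit within 50 kb of an end. Over all members, 68.4% had a summit within 50 kb, against 48.2% of all protein-coding genes. In 29 of the 45 the nearest summit lay within 1 kb of an annotated start of another gene. Neither count was made over all unoccupied genes, so neither is shown to be particular to members.

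Where starts were annotated, the summits at occupied members lay mostly at the genes' own starts, and much the same held over the whole list. Of all protein-coding genes with a start entry, 4663 were occupied within 5 kb and 3858 had any summit within 1 kb of an own start. The same counts for members were 43 and 37. The 37 include Dusp16 and Map3k1, which were not occupied within 5 kb, so the second count is not a part of the first. The same can hold in the counts over all genes. RefSeq start windows were matched for 75 of the 95 members, 42 in the kinase arm and 33 in the phosphatase arm. Of the 43 occupied members with a start, 34 had their strongest summit within 1 kb of it, at a median distance of 127 bp. These summits lay on either side of the start, 16 before it and 18 at or after it. In the kinase arm 8 lay before and 13 at or after the start, and in the phosphatase arm 8 before and 5 at or after it. The summits of Map3k11, Map4k5 and Dusp10 among these were nearer the start of another gene. In the other 9 members the strongest summit was farther from the start, and in 5 of these (Map3k12, Mapk11, Mapk8ip3, Mapkbp1 and Ptpn7) it lay within 1 kb of the start of another gene. Any summit within 1 kb of an own start was found at 22 of 42 kinase-arm genes (52.4%) and 15 of 33 phosphatase-arm genes (45.5%), against a background of 22.1%. By this measure 7 of 15 PTPN genes and 8 of 18 DUSP genes were occupied. By the 5 kb distance to either end, the same genes gave 10 of 15 and 7 of 18, against a background of 26.4%. With the genes lacking a start entry included, that distance gave 12 of 17 and 9 of 24. The shares of PTPN and DUSP thus lay closer together by the start measure. Its 8 DUSP genes include Dusp16, which the distance to either end does not count. In all, 20 of the 50 occupied members shared their strongest summit with another protein-coding gene within 5 kb, with no count over all genes given beside it.

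**Figure D3:**
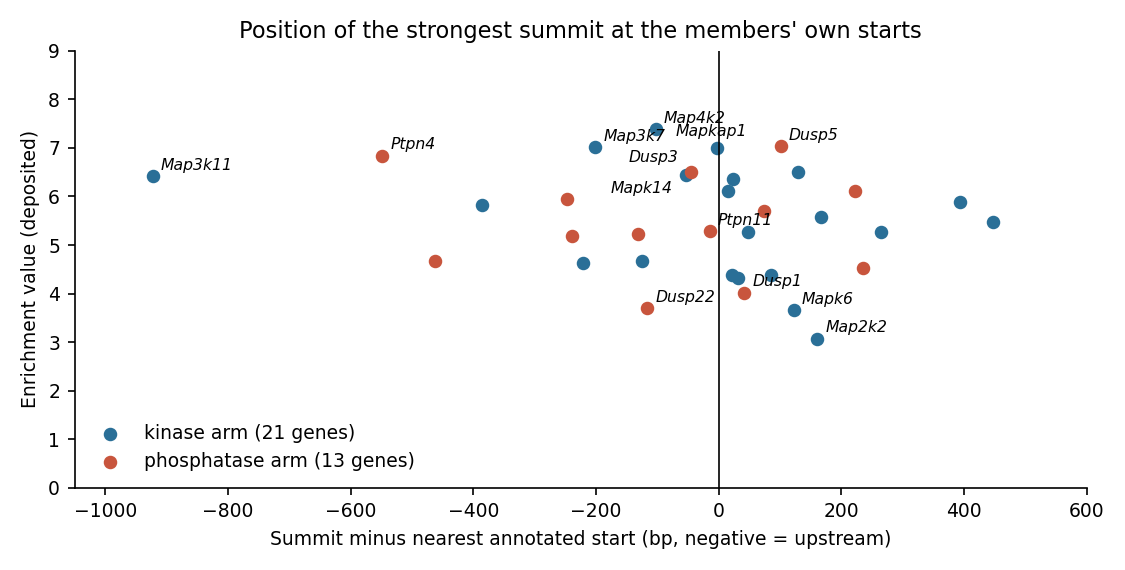
Each point is 1 of the 34 occupied genes whose strongest wild-type SHP summit lay within 1 kb of an annotated start, with the signed distance from the nearest start on the horizontal axis (bp, negative before the start) and the deposited enrichment value on the vertical axis. Kinase-arm genes are blue and phosphatase-arm genes red. Points of both arms lie on both sides of the start, and the lowest, Map2k2 at 3.07, lies 160 bp after it.

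The base content of the starts was related to occupancy and differed between the arms. A window was called CpG-rich at a GC content of at least 50% and an observed over expected CpG ratio of at least 0.6, which marks CpG island promoters. Such a window was present in 36 of 42 kinase-arm genes (85.7%), 23 of 33 phosphatase-arm genes (69.7%) and 48.3% of the 17492 protein-coding genes with a window. Among genes with a CpG-rich window, 24 of 36 in the kinase arm and 14 of 23 in the phosphatase arm were occupied within 5 kb, against a background of 44.1%. Without one, 2 of 6 and 3 of 10 were, against a background of 10.3%. The occupied genes without one were Map3k6, Mapk12, Dusp28, Ptpn6 and Ptpn7, and the last 2 had no summit within 1 kb of an own start. By a summit within 1 kb of an own start, the order of the arms turned among genes with a CpG-rich window. There it was 20 of 36 (55.6%) in the kinase arm and 14 of 23 (60.9%) in the phosphatase arm, against a background of 40.4%. Among genes with no CpG-rich window it was 2 of 6 and 1 of 10, against 4.89%. The part of base content in the members' share was not tested further.

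**Figure D4:**
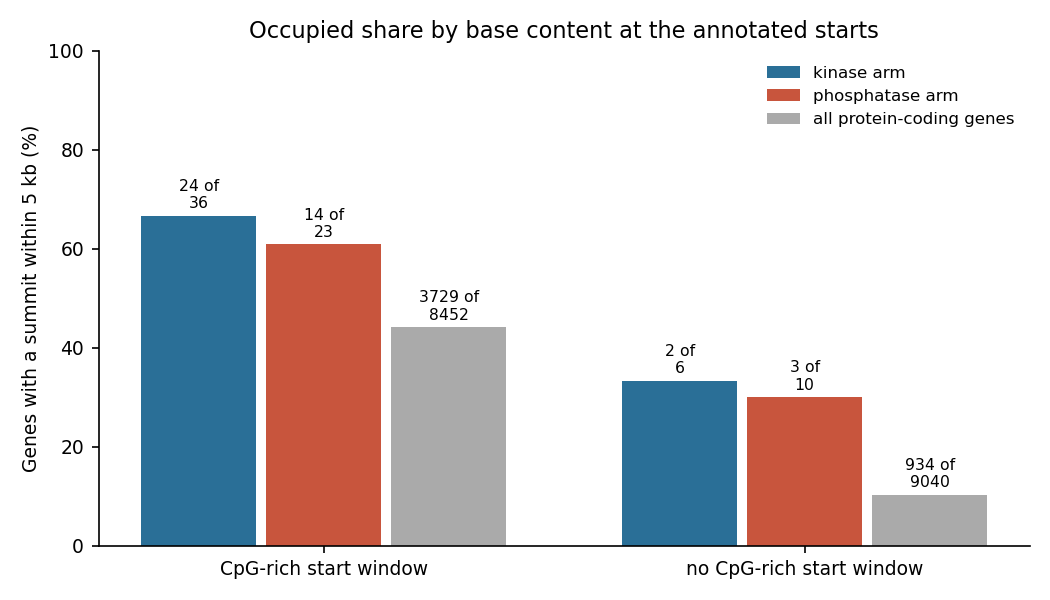
Bars give the percentage of genes with a wild-type SHP summit within 5 kb of an end, for genes with and without a CpG-rich window at an annotated start, with counts above each bar. Blue is the kinase arm, red the phosphatase arm and grey all protein-coding genes with a start window. In both strata the bars of the arms stand above the grey bars of 44.1% and 10.3%.

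Matches to transcription factor motifs were counted on both strands of the windows. The GC box (CCCGCCC), bound by SP and KLF factors, was present in 64.3% of the 42 windows of members with a summit within 1 kb of an own start. It was present in 33.3% of the 54 windows of other members, 54.3% of the windows of all genes with such a summit and 33.9% of all 21263 windows. The nuclear receptor element AGGTCA was present in 11.9% of the 42 windows and 18.5% of the 54. It was in 11.6% of the windows of all genes with such a summit and 14.7% of all windows. Its LRH-1 form CAAGGTC, which overlaps that element, was present in 0 of the 42 and 1 of the 54. That form was in 3.08% of the windows of all genes with such a summit and 3.64% of all windows. LRH-1 is a nuclear receptor to which SHP is known to bind. The AP-1 site TGACTCA was in 0 of the 42, 2 of the 54, 2.88% at all genes with such a summit and 4.66% of all. In the same order, the E-box CACGTG was in 4.76%, 7.41%, 10.8% and 7.84%. The cAMP response element core TGACG was in 28.6%, 35.2%, 33.0% and 23.6%. The Dusp1 window printed above held 3 of these cores, at 191, 143 and 140 bases before the start, the last 2 overlapping on opposite strands, and the Ptpn11 window held an overlapping pair. These are matches of letters in windows of 300 bases, while the peaks were about 1 kb wide.

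Genes that feed into the cascade or act below it were counted in the same way against the background of 26.4%. Of the growth factor receptors, adaptors, RAS and RAF genes, 17 of 30 were occupied, with a median enrichment value of 5.96. They included Shc1 (7.09), Src (6.58), Frs2 (6.52), the adaptor of FGF receptors, Braf (6.11), Egfr (5.04) and Klb (6.11), the co-receptor of FGF15. The RAS genes Hras and Nras and the receptor gene Fgfr4 were not occupied. Of the substrate kinases and transcription factors, 18 of 28 were occupied, with a median of 5.80, led by Jun (8.73), Elk3 (8.0) and Atf2 (7.61). Of the feedback inhibitors and RAS GTPase-activating genes, 11 of 18 were occupied, with Spred3 (7.99) and Rasa1 (7.05) highest and Spry2 at 4.99. Of the STE20-related kinases outside the MAP4K symbols, 11 of 20 were occupied. Genes with Ptpr symbols, which encode the receptor tyrosine phosphatases and the CD45-associated protein Ptprcap, had 7 of 21 (33.3%), with none above Ptpru (5.80). Within 1 kb of an own start, 7 of 17 Ptpr genes (41.2%) had a summit, beside 7 of 15 PTPN genes (46.7%) and 22.1% of all protein-coding genes with a start entry.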

How the data were processed

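ChIP-seq peak lists of SHP-knockout and wild-type intestine were used, 1 per genotype. Per the submitters' processing notes, the tools included BWA and CASAVA 1.4, and the build was mm10. The peak caller, its control, pooling and read depth were not given in the sources used. The deposited lists follow the 10-column narrowPeak layout. The file of the wild-type list names an irreproducible discovery rate (IDR) of 0.05 and that of the knockout list overlapping peaks. The authors' signal per peak (the enrichment value), the deposited −log10 p and −log10 q and the deposited score are the authors' own; signal and −log10 p were used only within the wild-type list, and the −log10 q and score were not used. Summits were taken as start plus offset plus 1.

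Gene ends came from RefSeq (GRCm38.p6), without strand; starts came from the RefSeq windows, matched by gene ID. Counts were made with Python 3.11.15, pandas 2.3.3 and numpy 2.4.6, and intervals with SciPy 1.17.1. The assignment was checked on simulated summits. No p-value was computed. The members and lists were chosen with earlier results of these data known. Full values were given for the 8 highest enrichment values of each arm, for Ptpn11, Ptpn6, Mapk3, Mapk8, Mapk14, Map2k1, Map2k2, Dusp1 and Dusp6, and for members nearest the distance threshold; other members and genes named with a value were chosen by role after their values were seen. Pak5 was not matched. Some genes that are counted are not reported by name here. Alternatives were the distance, a −log10 p minimum, the nearest gene only, peak edges, whole genes, catalytic members only and starts in place of ends.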

Additional observations from a re-analysis of the deposited data

How the results depend on the processing

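The kinase arm had the higher occupied share under all 10 alternatives run, by 1.90 to 13.1 percentage points, each inside the interval of the difference given in the report. Among genes with a CpG-rich window alone, a summit within 1 kb of an own start was more frequent in the phosphatase arm (60.9% against 55.6%). With the summit within 1 kb of an end, 40.0% of all members were occupied, against 20.7% of protein-coding genes. Within 50 kb, 68.4% of all members and 74.1% of the kinase arm were, against 48.2%. With each summit given to the nearest gene only, 42.1% of members were, against 20.99%. When peaks below the list's median −log10 p were dropped, 23.2% of members, 25.9% of the kinase arm and 19.5% of the phosphatase arm were, against 14.8%. There the median enrichment value was 6.45 in the kinase arm and 6.51 in the phosphatase arm, so its order turned round; it also turned round with summits anywhere in the gene counted (5.60 and 5.74). The remaining alternatives (10 kb, peak edges, whole genes, catalytic members only, and starts, of which the 1 kb start rule was added after the data were seen) stayed within the intervals. The 20 members without a start window were left out of the start rules. With 1 list per genotype, no replicate could be left out. No paired analysis was possible because each group had 1 sample and no test was made. Read depth is unknown, so an unoccupied gene is one with no peak in this list, not one shown to lack binding.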

Other observations

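At unoccupied members close to a summit, that summit mostly lay beside another gene's start, with no share over all genes given for comparison. Besides Map3k1 and Dusp16, whose summits lay inside them, 5 of the 45 unoccupied members had a summit within 20 kb. These were Mapk3, Mapk15 (11946 bp), Map2k5 (14550 bp), Mapk9 (15318 bp) and Map2k4 (18926 bp). The summit nearest to Map2k5 had an enrichment value of 8.19 and lay 257 bp before the start of Skor1. The one nearest to Mapk9 (4.86) lay 96 bp before the start of Rasgef1c and the one nearest to Map2k4 (6.12) lay 110 bp after the start of Zkscan6. Mapk10 and Ptpn13 are neighbours, and the summit nearest to Mapk10, 212348 bp away, was the one 240 bp before the Ptpn13 start.

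Peaks of unrelated members carried equal deposited values. Map2k1 and Dusp3, on chromosomes 9 and 11, both ranked 1349 by enrichment value and 1571 by −log10 p. Mapk1ip1l and Ptpn14, on chromosomes 14 and 1, both ranked 2030 and 3033. Ties of this kind limit how finely members can be ordered.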
